A study of Homo sapiens and Mus musculus with 20 samples.

Results

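In MCF10A cells, 1673 of the 22877 full-length Satb1 peaks overlapped a peak of the N-C1 construct but no peak of the construct without the homeodomain (∆HD), which is 7.31% of full-length peaks (95% interval 6.98 to 7.66). With a reciprocal overlap of 50% in place of 1 bp the number was 4024, and the A/T content and match number of that wider set, given beside the results, were lower. These sites were chosen by peak presence in 3 ChIP-seq lists, with an overlap of at least 1 bp, so their presence or absence in those lists and their fold enrichment there describe the choice and are not findings. Of the other full-length peaks, 20102 overlapped peaks of both constructs, 939 overlapped neither, and 163 overlapped ∆HD without N-C1. The 1673 are called sites missing in ∆HD below, a name that leaves out the 939. A site missing in ∆HD had no called peak in that list, which does not show that the construct was absent from it.

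MCF10A is a human mammary epithelial line that lacks native Satb1. Full-length Satb1 (FL), ∆HD and N-C1 (the N-terminal domain with CUT1 alone, so without CUT2 and without the homeodomain) were each expressed as a C-terminal eGFP fusion from a cumate-inducible lentiviral vector in sorted stable lines, and precipitated with a GFP antibody. A further pair of FL lists came from cells given camptothecin, an inhibitor of topoisomerase I, or ICRF-193, an inhibitor of topoisomerase II, for 2 h. ATAC-seq, in which a transposase marks accessible DNA, was done in native and in Satb1-expressing MCF10A cells. The study describes its genomic experiments as done in duplicate, but 1 list per condition was analysed here, and whether it pools the duplicates is not stated. No test between conditions was therefore possible and no p-value is given. Intervals are 95% intervals over peaks, or over matches where heptamers are counted. They cover counting error only, and a construct cannot be told apart from its library.

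Satb1 is a chromatin protein best known in thymocytes, where it shapes nuclear architecture and gene expression. Its N-terminal domain holds the protein together as an oligomer, and its CUT domains and homeodomain contact DNA. It favours A/T-rich DNA, in particular stretches that unpair readily under torsional stress. Homeodomains as a family read short A/T-rich cores such as TAAT.

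The Satb1 consensus (YTAWTAR by name) was searched on both strands, with overlaps allowed. It was taken as the heptamer CTAATAA, with its reverse complement TTATTAG, then the heptamer CTAATAG with its complement CTATTAG, the heptamer TTAATAA with its complement TTATTAA, and the heptamer TTAATAG with its complement CTATTAA. Each match contains TAAT or ATTA. In 120 bp at the summit, with matches in capitals and the plus strand of hg19 written 5′ to 3′, the 6 sites with the largest FL fold enrichment read as follows, each named by the nearest protein-coding start. They are shown because these strong sites held between 0 and 11 matches in 400 bp.
MAGI3, chr1:113958696-113958815: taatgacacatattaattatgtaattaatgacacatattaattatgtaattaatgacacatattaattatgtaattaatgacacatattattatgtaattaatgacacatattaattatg
NR2F2, chr15:97600301-97600420: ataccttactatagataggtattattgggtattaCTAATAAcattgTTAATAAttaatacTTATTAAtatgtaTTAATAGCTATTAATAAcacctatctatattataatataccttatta
ATXN1, chr6:16594266-16594385: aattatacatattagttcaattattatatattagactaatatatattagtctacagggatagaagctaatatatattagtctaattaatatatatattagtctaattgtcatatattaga
NALCN, chr13:101586185-101586304: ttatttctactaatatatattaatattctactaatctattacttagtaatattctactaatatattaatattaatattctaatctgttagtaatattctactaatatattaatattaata
AASDHPPT, chr11:106050770-106050889: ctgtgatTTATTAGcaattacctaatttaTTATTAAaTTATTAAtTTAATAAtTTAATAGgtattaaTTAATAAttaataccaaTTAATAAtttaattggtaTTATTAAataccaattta
CDH9, chr5:26036601-26036720: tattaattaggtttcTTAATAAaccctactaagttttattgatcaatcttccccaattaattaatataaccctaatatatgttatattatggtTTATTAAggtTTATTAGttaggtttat

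The stretch near MAGI3 held no consensus match but 8 copies of TAATTA in a tandem array, and the stretch near NALCN held 0 matches as well. The stretches near NR2F2 and AASDHPPT held 6 and 8 matches. The stretch near ATXN1 held 0 matches in 120 bp and its peak held 1 in 400 bp. The A/T content of the 6 stretches lay between 78.3% near CDH9 and 87.5% near NALCN and AASDHPPT.

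The sites with the most matches are shown next, because their summits are nearly pure A/T and built of repeats. The first site in this order is not printed, and a further peak with many matches, near NMNAT3, was added after its values were seen. The site named FKSG68 lay in an intron of RUNX1.
CEP295, chr11:93346872-93346991: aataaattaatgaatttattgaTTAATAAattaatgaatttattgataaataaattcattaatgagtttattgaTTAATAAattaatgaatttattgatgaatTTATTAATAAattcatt
FKSG68, chr21:37298464-37298583: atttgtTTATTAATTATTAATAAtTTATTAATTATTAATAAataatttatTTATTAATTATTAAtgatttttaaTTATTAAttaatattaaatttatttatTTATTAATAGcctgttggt
RFPL4B, chr6:112894226-112894345: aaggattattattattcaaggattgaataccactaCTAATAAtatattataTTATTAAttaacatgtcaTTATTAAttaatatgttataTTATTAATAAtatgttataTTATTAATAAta
NMNAT3, chr3:139476717-139476836: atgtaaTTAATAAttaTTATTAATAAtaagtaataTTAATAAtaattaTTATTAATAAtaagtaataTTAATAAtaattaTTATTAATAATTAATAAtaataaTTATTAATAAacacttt

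Here 4, 11, 7 and 12 matches lay in 120 bp, and the A/T content was 90.0%, 93.3%, 87.5% and 95.8%. In many places TTATTAA and TTAATAA overlapped, with starts 3 bp apart. The windows used for the measurements were centred on the peak midpoint, and at NMNAT3, where the summit lies to one side, the 200 bp at the midpoint held 58% A/T.

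The 2 strongest sites with exactly 2 matches in 400 bp lying 9 to 11 bp apart show the plainer form of a site.
ATG10, chr5:81328542-81328661: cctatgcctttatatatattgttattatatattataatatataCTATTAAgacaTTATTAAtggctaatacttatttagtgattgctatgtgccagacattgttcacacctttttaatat
PPFIA2, chr12:82422454-82422573: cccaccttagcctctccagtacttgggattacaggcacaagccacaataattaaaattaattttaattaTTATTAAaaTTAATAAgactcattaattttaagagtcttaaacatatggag

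Their matches were 11 and 9 bp apart, and their FL fold enrichment was 10.6 and 8.15. For contrast, the 2 strongest peaks found in all 3 lists, chosen after their values were seen, read as follows.
FOXD4L3, chr9:70931511-70931630: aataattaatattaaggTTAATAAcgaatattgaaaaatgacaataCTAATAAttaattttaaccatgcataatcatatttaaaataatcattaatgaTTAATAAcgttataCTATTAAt
A1CF, chr10:52621280-52621399: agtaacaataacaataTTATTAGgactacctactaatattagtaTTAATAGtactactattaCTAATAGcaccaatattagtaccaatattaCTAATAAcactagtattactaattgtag

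These 2 sites held 4 matches each in 120 bp, and 10 and 8 in 400 bp. Their fold enrichment was 59.0 and 56.8 in the FL list, 71.3 and 78.6 in the N-C1 list, and 52.1 and 55.8 in the ∆HD list.

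The sites missing in ∆HD were richer in A/T than the sites of all 3 lists. In 200 bp at the peak midpoint they held 76.4% A/T on average (SD 5.84, 95% interval 76.1 to 76.6, n = 1670 peaks whose windows held no unknown base), against 71.7% (SD 4.92, 71.6 to 71.7, n = 20090) at the sites of all 3 lists, a difference of 4.70 percentage points (4.41 to 4.99). The sites found with a reciprocal overlap of 50% held 72.6% A/T. An A/T content of 80% or more was found at 426 of the 1670 sites, or 25.5% (23.4 to 27.7), against a background of 7.22% of all full-length peaks and 3.21% (2.97 to 3.46) of the sites of all 3 lists. It was also found at 20.2% (14.4 to 27.2) of the 163 peaks with ∆HD and without N-C1. Among the peaks in neither construct it was 58.6% (55.4 to 61.8). The surroundings did not share the difference between the sites missing in ∆HD and the sites of all 3 lists. Flanks lying 1000 to 2000 bp away held 62.5% A/T (62.3 to 62.8) beside the sites missing in ∆HD and 62.4% (62.4 to 62.5) beside the sites of all 3 lists. The peak exceeded its own flanks at 98.6% (97.9 to 99.1) of the sites missing in ∆HD, against a background of 94.8% of all full-length peaks. It did so at 94.2% (93.9 to 94.6) of the sites of all 3 lists and at 99.5% (98.8 to 99.8) of the peaks in neither construct.

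Read the other way, the share of full-length and N-C1 sites that were missing in ∆HD rose with A/T content. It was 2.21% (1.57 to 3.03, 38 of 1717) below 65% A/T, 5.20% (4.75 to 5.69) between 70 and 75%, 33.4% (30.4 to 36.6) between 80 and 85%, and 75% (67.7 to 81.4, 123 of 164) at 85% or more. Among the FL peaks with fold enrichment from 10.7 upward the shares in the lowest and highest classes were 1.23% (0.335 to 3.11) and 73.7% (65.9 to 80.5). The N-C1 list, which supplied the members, also lacked A/T-rich full-length peaks, 1.72% (1.16 to 2.44) of them below 65% A/T and 56.3% (51.1 to 61.4) at 85% or more. The drug lists went the opposite way, and the ICRF-193 list lacked 28.8% (26.7 to 31.0) of full-length peaks below 65% A/T and 0 of 375 at 85% or more (upper bound 0.979%).

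**Figure D1:**
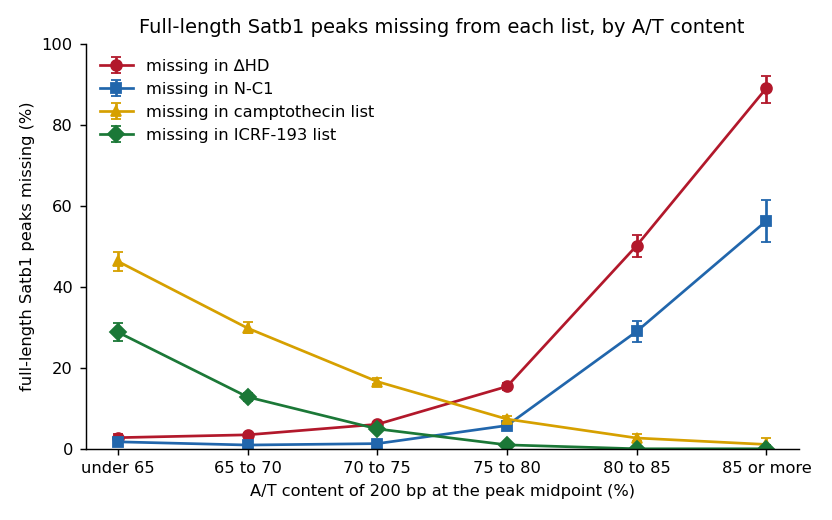
Percent of full-length Satb1 peaks in MCF10A with no overlapping peak in the ∆HD, N-C1, camptothecin and ICRF-193 lists (y axis), by A/T content of 200 bp at the peak midpoint (x axis), with exact 95% intervals as bars. The ∆HD and N-C1 lines rise to 89.1% and 56.3% at 85% A/T or more, while both drug lines fall to 1.07% or less.

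Whole lists differed in the same measure. Mean A/T content was 72.4% (SD 5.49) over the FL list, 70.9% (SD 4.50) over N-C1, 69.8% (SD 5.13) over ∆HD, 73.5% (SD 5.07) over camptothecin and 73.3% (SD 5.01) over ICRF-193. Peaks of 80% A/T or more made up 7.22% of the FL list, 1.43% of N-C1 and 1.06% of ∆HD. Whether the recovery of A/T-rich DNA differed between the libraries was not tested.

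Unbroken stretches of A/T were also longer. The longest run of A and T without a G or C in 200 bp averaged 23.2 bp (SD 12.1, 22.6 to 23.7) at the sites missing in ∆HD and 14.4 bp (SD 4.64, 14.3 to 14.5) at the sites of all 3 lists, a difference of 8.78 bp (8.19 to 9.36). A run of 20 bp or more was present at 906 sites, or 54.3% (51.8 to 56.7), against a background of 17.0% of all full-length peaks and 11.5% (11.1 to 11.9) of the sites of all 3 lists. At like A/T content the difference was 5.66 bp (4.90 to 6.41) between peaks of 75 to 80% A/T and 6.4 bp (5.49 to 7.32) between peaks of 70 to 75%. Pure runs of A or of T were not more frequent, with a run of 10 or more at 1.56% (1.02 to 2.27) of the sites and at 1.70% (1.52 to 1.89) of the sites of all 3 lists. TA made up 15.3% (15.1 to 15.5) of dinucleotide steps against 12.5% at the sites of all 3 lists, and AA or TT 28.2% (27.9 to 28.5) against 26% (25.9 to 26). Sequences with TA at 20% or more of steps numbered 212, or 12.7% (11.1 to 14.4), against a background of 3.14% and 1.02% (0.881 to 1.16) at the sites of all 3 lists.

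At a fixed A/T content, sites were missing in ∆HD more often the longer the run. Between 70 and 75% A/T, 1.77% (1.25 to 2.44, n = 2086) were missing where the longest run was under 12 bp, 6.42% (5.35 to 7.63) at 16 to 19 bp, 18.9% (16.3 to 21.6) at 20 to 29 bp and 45.5% (35.6 to 55.8, 46 sites) at 30 bp or more. Between 75 and 80% A/T the same order held, from 3.30% (1.86 to 5.38) to 52.5% (44.5 to 60.4). Other peaks of the N-C1 list, which were not among those the sites were chosen from, showed the same order, though in the same N-C1 and ∆HD libraries. Of the N-C1 peaks with no full-length peak, 41.3% (40.5 to 42.2, n = 14161) were missing in ∆HD at runs under 12 bp, 63.5% (61.7 to 65.4) at 20 to 29 bp and 87.6% (79.4 to 93.4, 85 of 97) at 30 bp or more. By A/T content these peaks changed less, from 35.8% (34.3 to 37.4) below 65% A/T to 50% (39.9 to 60.1) between 80 and 85%.

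**Figure D2:**
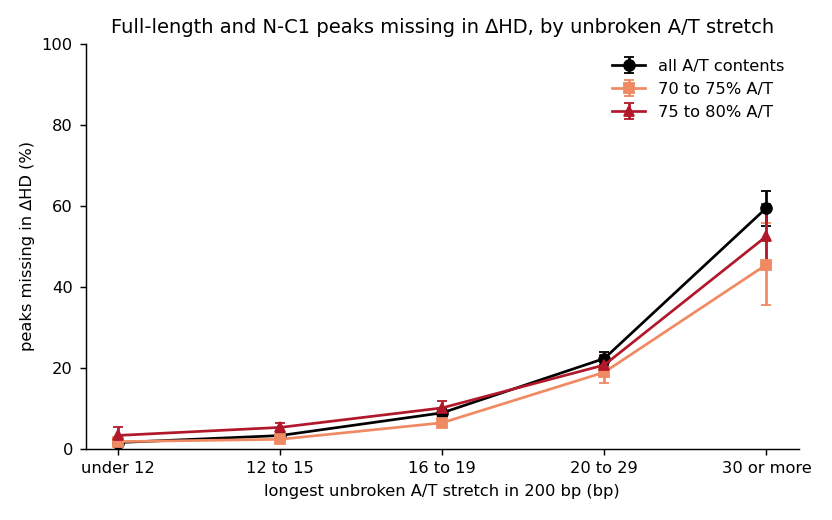
Percent of sites in both the full-length and N-C1 lists with no ∆HD peak (y axis), by the longest unbroken A/T stretch in 200 bp (x axis), for all sites and for sites of 70 to 75% and 75 to 80% A/T, with exact 95% intervals as bars. All 3 lines rise together, to 59.5%, 45.5% and 52.5% at stretches of 30 bp or more.

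The differences were present in each class of strength. Full-length peaks were split into 4 classes of about equal size by FL fold enrichment, and A/T content differed by 2.99 percentage points (2.60 to 3.38) in the weakest class, with FL fold enrichment up to 5.82, and by 8.26 points (7.69 to 8.82) in the strongest, from 10.7 upward. In that strongest class the 440 sites missing in ∆HD averaged 81.3% A/T and the 5160 sites of all 3 lists 73.0%. The longest A/T run differed by 5.11 bp (4.50 to 5.73) in the weakest class and by 14.4 bp (12.9 to 16) in the strongest. When peaks were split by N-C1 fold enrichment instead, A/T content still differed by 4.54 points (4.18 to 4.90) in the lowest class and 8.03 points (6.4 to 9.67) in the highest, where 59 of the sites lay. In these classes FL fold enrichment was also higher at the sites missing in ∆HD, by 2.07 (1.83 to 2.31) in the lowest and 8.34 (6.19 to 10.5) in the highest.

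**Figure D3:**
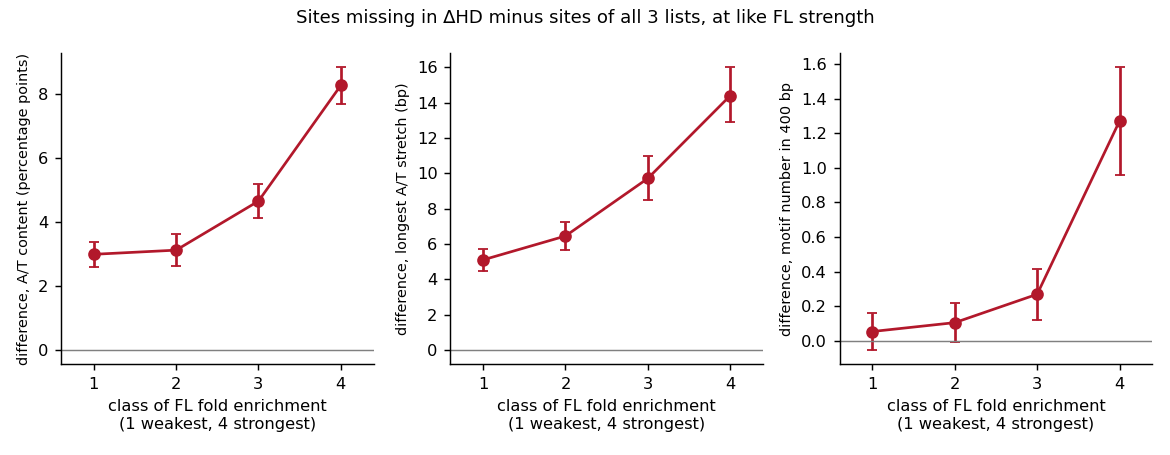
Mean of the sites missing in ∆HD minus mean of the sites of all 3 lists (y axes) for A/T content, longest unbroken A/T stretch and consensus number, within 4 classes of FL fold enrichment (x axes, 1 weakest), with 95% intervals as bars. All 3 differences are largest in class 4, at 8.26 percentage points, 14.4 bp and 1.27 matches.

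Consensus matches were present at nearly every site. At least 1 match in 400 bp was found at 1628 of 1670 sites, or 97.5% (96.6 to 98.2), against a background of 96.7% of all full-length peaks. Of 7146352 tiles of 400 bp that cover hg19 without an unknown base, 25.8% held a match. The narrower form, CTAATAA or CTAATAG on either strand, was found at 53.2% of the sites. The mean number of matches was 3.14 (SD 2.19, 3.03 to 3.24) against 2.72 (SD 1.48, 2.70 to 2.74) at the sites of all 3 lists, a difference of 0.419 (0.312 to 0.526). The sites found with a reciprocal overlap of 50% held 2.63 matches. Within 6 classes of A/T content, which were added once the values were known, this difference turned to -0.287. At 80 to 85% A/T the sites missing in ∆HD held 3.56 matches and those of all 3 lists 4.31, a difference of -0.756 (-1.10 to -0.413). At 85% or more the difference was -2.01 (-3.48 to -0.536). In each class below 80% A/T the interval included 0, as at 75 to 80% with 0.0581 (-0.0676 to 0.184) over 600 sites.

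The surplus lay in the upper tail. Sites with 7 or more matches numbered 83, or 4.97% (3.98 to 6.12), against a background of 1.70% of all full-length peaks and 1.36% (1.21 to 1.53) of the sites of all 3 lists. With FL fold enrichment up to 5.82 the mean match number differed by 0.0537 (-0.0541 to 0.161), and in the strongest class by 1.27 (0.960 to 1.58). As a description, FL fold enrichment averaged 7.57 (SE 0.312, n = 224) at sites with 1 match, 10.2 (SE 0.361, n = 248) with 4, 17.0 (SE 1.04, n = 55) with 6 and 23.4 (SE 1.44, n = 30) with 10 or more. At the sites of all 3 lists the value was 46.2 (SE 0.965, n = 88) with 10 or more matches, and at 1 match it was 8.20 (SE 0.0922). The 42 sites with no match averaged 10.2 (7.34 to 13.0).

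The heptamers used were shifted as well, with A/T content not held equal. The intervals here are over matches, of which a peak can hold several. TTAATAA and its reverse complement TTATTAA, the forms without any G or C, made up 64.2% (62.9 to 65.5) of 5241 matches, against 45.6% (45.2 to 46.0) of 54633 matches at the sites of all 3 lists. CTAATAA with TTATTAG made up 20% (18.9 to 21.1) against 30.6% (30.2 to 31.0). TTAATAG with CTATTAA made up 10.9% against 14.4%, and CTAATAG with CTATTAG 4.92% against 9.39%.

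The palindrome TAATTA, which cannot lie inside a consensus match and holds the homeodomain core on both strands, was counted in 200 bp after the sequences had been seen. At least 1 copy was present at 965 sites, or 57.8% (55.4 to 60.2), against a background of 45.9% of all full-length peaks and 44.3% (43.6 to 44.9) of the sites of all 3 lists. The share among full-length peaks in neither construct was 61.3% (58.1 to 64.4). In 14292991 tiles of 200 bp across hg19 TAATTA was present in 8.56%. Sites with 3 or more copies numbered 262, or 15.7% (14.0 to 17.5), against a background of 5.99% and 4.70% (4.42 to 5.01) at the sites of all 3 lists. The mean differed by 0.570 copies (0.487 to 0.653), and by 0.199 within 6 classes of A/T content.

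Repeats in which a sequence meets its own reverse complement were longer. The longest such inverted repeat in 200 bp had an arm of 9.89 bases on average (SD 3.39, 9.73 to 10.1) against 8.35 (SD 2.07, 8.32 to 8.37) at the sites of all 3 lists. An arm of 12 or more was found at 344 sites, or 20.6% (18.7 to 22.6), against a background of 7.50% of all full-length peaks and 5.4% (5.09 to 5.72) of the sites of all 3 lists. Full-length peaks in neither construct had such an arm more often, at 29.4% (26.5 to 32.4). Words of 8 bases that occurred more than once made up 12.2% (11.5 to 13.0) of all words at the sites missing in ∆HD and 5.04% (4.91 to 5.16) at the sites of all 3 lists. In the strongest class of FL fold enrichment they made up 26.9% and 8.85%. Between peaks of 75 to 80% A/T the repeated words still differed by 2.97 percentage points (2.12 to 3.82) and the arms by 0.694 bases (0.463 to 0.924). At 85% A/T or more, with 41 sites of all 3 lists, the interval of the arm difference reached from -1.12 to 1.76.

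Neighbouring matches lay closer together than at the sites of all 3 lists, with a median start-to-start distance of 23 bp over 3613 pairs against 36 bp over 35201 pairs. The most frequent distance was 3 bp, that of 2 overlapping matches, with 338 pairs or 9.36%, against 5.74% at the sites of all 3 lists. It was followed by 9 bp with 143 pairs and 7 bp with 141. Pairs 8 to 12 bp apart made up 14.7% against 10.5%. The number of matches per site was not held equal in these values. Among sites with exactly 2 matches the median distances were 34 and 44 bp. There, pairs 3 bp apart made up 2.33% and 2.03%, and pairs 8 to 12 bp apart 13.8% and 10.7%. Distances within 2 bp of 10, 20, 30, 40 or 50 numbered 1349 and those within 2 bp of 15, 25, 35 or 45 numbered 902, a ratio of 1.5 at the sites missing in ∆HD and likewise 1.5 at the sites of all 3 lists. The first set has 5 windows and the second 4, and short distances are the most frequent. With windows at 20, 30, 40 and 50 bp set against 15, 25, 35, 45 and 55 bp, a choice made after the data were seen, the ratio per window was 1.05 and 1.11. Among sites with exactly 2 matches it was 1.73 over 429 pairs and 1.37 over 5876 pairs. The value of 1.73 rests on 116 and 84 pairs in the windows and has no interval. Whether it differs from 1.37 was not tested.

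**Figure D4:**
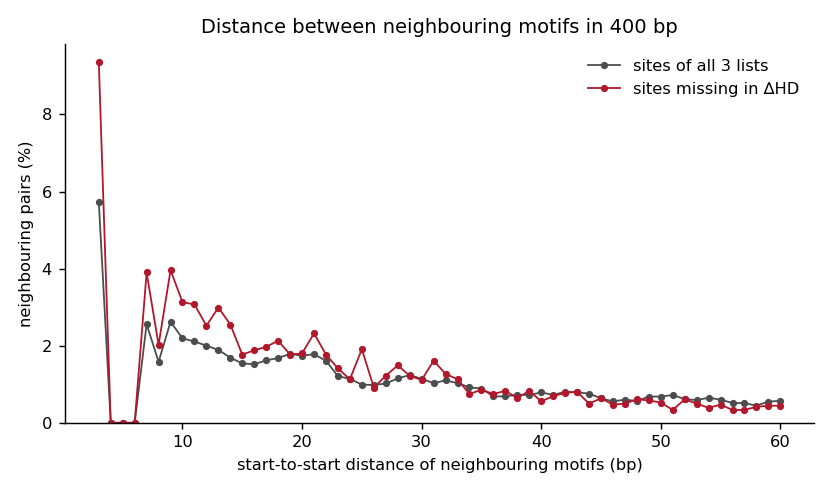
Share of neighbouring consensus pairs in 400 bp (y axis, percent of all pairs of that group) by start-to-start distance (x axis, 3 to 60 bp), for sites missing in ∆HD and sites of all 3 lists. Both lines peak at 3 bp, with 9.36% and 5.74%, and the sites missing in ∆HD lie higher at each distance from 7 to 14 bp.

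As a description of the choice, FL fold enrichment at the sites missing in ∆HD reached from 2.25 to 45.3, with a median of 7.04 and quartiles of 5.68 and 11.2. At the sites of all 3 lists the median was 7.38 and the quartiles 5.82 and 10.9. The sites were spread through the FL list, at a median percentile of 46.4. They made up 8.45% (7.76 to 9.17) of the weakest class of full-length peaks, 5.96% (5.36 to 6.61) of the third class and 7.73% (7.05 to 8.45) of the strongest. In the N-C1 list the sites stood lower, with a median fold enrichment of 6.56 (quartiles 5.18 and 8.47), which was percentile 59.0 of that list, where the sites of all 3 lists had 11.1 (8.13 and 16.6) and percentile 83.7. In the strongest FL class the medians in the N-C1 list were 8.99 and 23.9, at percentiles 76.5 and 95.8 of that list.

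**Figure D5:**
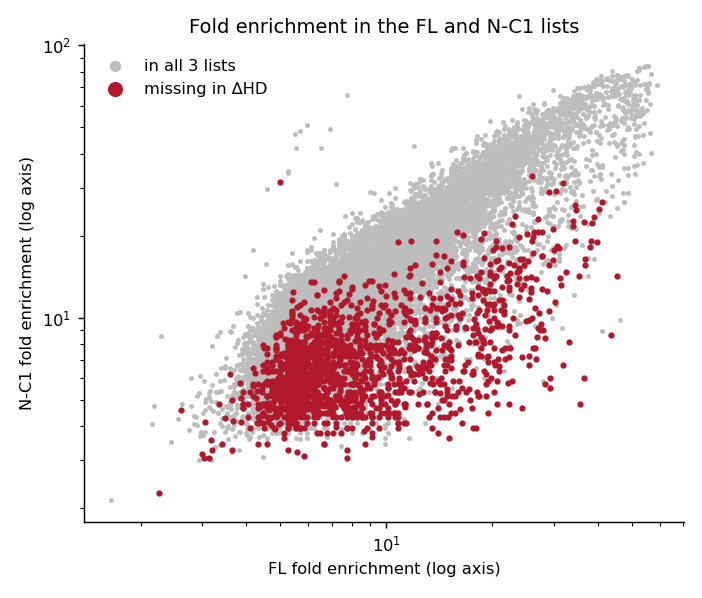
Fold enrichment in the FL list (x axis, log scale) and in the N-C1 list (y axis, log scale), 1 point per full-length peak, red for the 1673 sites missing in ∆HD and grey for the 20102 sites of all 3 lists. The red points run along the lower edge of the grey cloud, with medians in the strongest FL class of 8.99 and 23.9 in the N-C1 list.

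The strongest site, in an intron of MAGI3, a scaffold protein of cell contacts, had a fold enrichment of 45.3 in the FL list, 14.2 in N-C1, 50 after camptothecin and 57.3 after ICRF-193. It lay on chromosome 1 (113958412 to 113959021 in hg19), and a ∆HD peak lay 319 bp away. The site with the next FL value was intergenic, 724 kb from NR2F2, an orphan nuclear receptor gene, with 43.6 in FL and 8.65 in N-C1. It was followed by an intronic site of ATXN1, the ataxin-1 gene, with 41.1 and 26.6. The site near NALCN, which encodes a sodium leak channel, had 40.3 and 25.1, the site near AASDHPPT 39.8 and 18.9, and the site near CDH9, a type II cadherin gene, 39.0 and 23.4. These 6 sites were present in both drug lists, with fold enrichment of 35.2 to 50 after camptothecin and 43.8 to 57.3 after ICRF-193.

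Of the 4 sites with the most matches, the peak on chromosome 8 held 25 in 400 bp at 96.0% A/T, 379 kb from ZNF703, with a fold enrichment of 18.3 in FL and 8.82 in N-C1. The sites near CEP295 and in an intron of RUNX1, a transcription factor of blood formation, held 22 each, at 36.6 and 14.3 in the FL list. The site near RFPL4B held 21, at 16.9. The largest N-C1 values were 33.1 near KLRB1, 31.5 near SEMA6D and 31.2 in an intron of IPO11. The SEMA6D site had an FL value of 5 over a peak of 219 bp and lay 53 bp from a ∆HD peak.

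Distance to the nearest ∆HD peak also describes the choice, because any site touching such a peak was left out. The nearest ∆HD peak was at a median distance of 14142 bp (quartiles 5007 and 33610), over 10 kb away at 990 sites (59.2%) and within 100 bp at 9. At the 939 peaks in neither construct, which also lack a ∆HD peak, the median was 13912 bp (quartiles 5354 and 33997). At the edge of the choice, the sites nearest to a ∆HD peak without touching it lay in introns of PCDH9 and RFX3 and near BRINP2, at 4, 37 and 46 bp, with FL fold enrichment of 4.45, 4.59 and 12.4. On the other side, the sites of all 3 lists that shared the fewest bases with a ∆HD peak shared 23 bp in an intron of MMP26, 26 bp near CSMD1 and 69 bp near SSU72L6, with 5.13, 5.68 and 5.41. The sites farthest from any ∆HD peak were at the FOSB promoter (593416 bp), near TSPY2 (568090 bp) and near SHOX (456429 bp).

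After camptothecin, 1333 of the 1673 sites had an overlapping Satb1 peak, or 79.7% (77.7 to 81.6), against a background of 81.7% of all full-length peaks. After ICRF-193 it was 1564, or 93.5% (92.2 to 94.6), against a background of 92.9%. Both shares were close to the background. The sites in neither drug list numbered 97, or 5.80% (4.73 to 7.03), against a background of 5.84%. The 3 strongest of these lay near NRSN1 and IGSF11 and in an intron of TSPAN18, with FL fold enrichment of 7.46, 7.19 and 6.91.

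Presence in the drug lists followed A/T content within the sites, with FL fold enrichment not held equal. A/T content and presence in the camptothecin list both rose with FL fold enrichment. In the weakest FL class the sites averaged 73.7% A/T and 54.5% were in the camptothecin list, in the strongest 81.3% and 100%. Which of the 2 the presence followed was not tested. After camptothecin 36.2% (31.8 to 40.8, n = 458) were missing at 70 to 75% A/T, 13.5% (10.9 to 16.5, n = 600) at 75 to 80% and 1.32% (0.361 to 3.35, 4 of 303) at 80 to 85%. After ICRF-193 the shares were 12% (9.18 to 15.3), 2.00% (1.04 to 3.47) and 0 of 303, which allows up to 1.21%. The comparison with the sites of all 3 lists depended on what was held equal. The camptothecin share differed by -2.19 percentage points (-4.25 to -0.250) without classes, by -0.378 within classes of FL fold enrichment, by 12.5 within classes of N-C1 fold enrichment and by -10.4 within classes of A/T content. The ICRF-193 share differed by 0.638 points (-0.693 to 1.78) without classes, and by 8.68 and -3.30 within the last 2 kinds of classes. Classes of N-C1 fold enrichment did not hold FL fold enrichment equal. It averaged 7.82 at the sites missing in ∆HD and 5.75 at the sites of all 3 lists in the lowest N-C1 class, and 26.0 and 17.7 in the highest.

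Within each class of FL fold enrichment, fold enrichment in the ICRF-193 list was higher at the sites missing in ∆HD. In the strongest FL class it averaged 25.2 at the 442 sites and 22.0 at the sites of all 3 lists, a difference of 3.28 (2.40 to 4.16), while mean FL fold enrichment itself differed by -0.229 (-0.906 to 0.447). The median FL fold enrichment in that class was however higher at the sites missing in ∆HD, 17.0 against 15.5. Over all strengths, mean fold enrichment in the FL and ICRF-193 lists was 9.71 and 13.7 at the sites missing in ∆HD. At the peaks in neither construct it was 7.50 and 12.8. In the weakest class the ICRF-193 difference was 0.468 (0.220 to 0.717), over the sites with a peak in that list. In the camptothecin list the difference was 0.622 (-0.0867 to 1.33) in the strongest class and 0.541 (0.288 to 0.793) in the third. The camptothecin and ICRF-193 lists are other samples than those that chose the sites, though they hold the same full-length protein.

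Few sites were accessible. An ATAC-seq peak of native cells overlapped 44 sites, or 2.63% (1.92 to 3.51), against a background of 3.42% of all full-length peaks. In cells expressing Satb1 it was 73 sites, or 4.36% (3.44 to 5.46), against a background of 4.64%. The native list covered 5.76% of the genome and the list of Satb1-expressing cells 8.95%. The differences from the sites of all 3 lists were -0.907 percentage points (-1.62 to 0.00897) and -0.353 points (-1.28 to 0.772). With the summit required to lie inside the ATAC-seq peak, the shares fell to 1.14% and 2.51%. The 5 strongest of the 40 sites accessible in both lists lay at the AKAP17A promoter, near C15orf39, in introns of MFAP1 and PDE6A, and near ISL1, with FL fold enrichment of 29.2, 27.7, 23.5, 21.7 and 20.6. Their A/T content lay between 82% near ISL1 and 85% at AKAP17A.

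By the annotation at the summit, 1092 sites were intergenic, or 65.3% (62.9 to 67.6), against a background of 61.1% of all full-length peaks and 60.5% (59.8 to 61.2) of the sites of all 3 lists. The share was 64.9% (61.7 to 67.9) of the peaks in neither construct and 64.4% (56.6 to 71.7) of those with ∆HD and without N-C1. With transcripts of every type in place of protein-coding transcripts, the intergenic share of the sites missing in ∆HD was 44.2%. The share of other peaks under that choice is not given. Introns held 560 sites (33.5%), exons 14 (0.837%) and promoters 7 (0.418%), against a background of 37.3%, 1.07% and 0.551% of all full-length peaks. The intervals of the exon share (0.458 to 1.40) and of the promoter share (0.168 to 0.860) included the background. The median distance to the nearest protein-coding start was 123413 bp, against 104204 bp at the sites of all 3 lists.

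The 7 promoter sites belonged to AKAP17A, NFU1, ZNF841, POLE2, FOSB, HLA-E and TOGARAM1, with FL fold enrichment of 29.2, 13.3, 10.4, 6.37, 5.83, 5.32 and 5.27. NFU1 helps to build iron-sulphur proteins, POLE2 is a subunit of a replicative DNA polymerase, FOSB is a subunit of the AP-1 transcription factor, and HLA-E is a class I histocompatibility gene. The FOSB site had the lowest A/T content among them, at 59.5%, and with AKAP17A it was accessible in both ATAC-seq lists. The AKAP17A and NFU1 sites held 85% and 85.5% A/T. Of the exonic sites, the strongest lay in PKHD1, a gene of renal cilia, with 23.8 and in MACC1, a gene linked to cancer spread, with 22.1, and then in GK5 (9.38), DEGS1 (7.19), ZBTB24 (7.19) and OTUD6B (7.19). LYRM7, RABL3, PROCR and HECW1 followed with 6.78, 6.64, 6.42 and 5.68.

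Protein-coding genes that held at least 1 site numbered 551, out of 4157 that held a full-length peak, and 72 held 2 or more. ROBO2, an axon guidance receptor gene 1743 kb long, held 5 of its 33 full-length peaks among the sites, the strongest with an FL fold enrichment of 22.5, and 27 of its peaks were in all 3 lists. RBFOX1, a neuronal splicing factor gene, held 4 of 7 (26.6), CADM2, a synaptic adhesion gene, 4 of 28 (23.2), and LRRTM4, which encodes a postsynaptic adhesion protein, 4 of 13 (21.8). EPHA6, an ephrin receptor gene, held 4 of 21 (16.6) and EYS, a photoreceptor gene, 4 of 40 (15.3). EMCN, a sialomucin gene of the endothelium, held 3 of 7 (27.3), NRG3, a neuregulin gene, 3 of 15 (15), NAALADL2 3 of 17 (14.7) and ZFPM2, a cofactor of GATA factors, 3 of 34 (12). A gene can hold no more sites than it has full-length peaks, and gene length was not held equal in these counts.

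In 10 gene lists, taken over each gene and 10 kb on either side, the share of full-length peaks that were in N-C1 without a ∆HD peak was read against the 7.31% of all full-length peaks. Long neuronal adhesion and fragile-site genes held 47 sites among 674 full-length peaks, or 6.97% (5.17 to 9.17), in 27 of 46 genes. The strongest lay in DLG2, a synaptic scaffold gene, with 29, followed by RBFOX1, CADM2 and ROBO2. Glutamate and GABA receptors held 9 of 123, or 7.32% (3.40 to 13.4), in 6 of 27 genes, among them GRIK1 with 34.0, GABRG3 with 11 and GRIA2 with 9.11. Developmental transcription factors held 7 of 120, or 5.83% (2.38 to 11.6), led by ZFHX3 with 25.8, MECOM with 16.8, RUNX1 with 14.3 and RORA with 6.37. Type II cadherins held 3 of 60, or 5% (1.04 to 13.9), with CDH12 at 7.05, CDH6 at 6.37 and CDH18 at 5.82. ERBB receptors and neuregulins held 4 of 55, or 7.27% (2.02 to 17.6), 3 in NRG3 and 1 in NRG1, where the FL fold enrichment was 8.70. The interval of each of these 5 lists included the share of all full-length peaks.

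The remaining lists held few full-length peaks. Basal mammary genes held 0 sites among 15 full-length peaks, with an upper bound of 21.8%, and luminal mammary genes 0 among 32, with an upper bound of 10.9%. Epithelial to mesenchymal transition genes held 1 among 21, or 4.76% (0.120 to 23.8), in SMAD3, a TGF-beta signal transducer, with 13.4. Glypicans held 1 of 48, or 2.08% (0.0527 to 11.1), in GPC3 with 6.64, and the SLITRK family 0 of 3, with an upper bound of 70.8%. The interval of each of these lists also included the share of all full-length peaks. With so few peaks, a lower share than that of all full-length peaks was not detectable in the basal and luminal lists.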

How the data were processed

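The 7 peak lists of MCF10A that bear on these sites were used, of 20 samples, and the others were not analysed here. Per the methods and labels, the authors used cutadapt for adapters, Bowtie2 for alignment (hg19) and MACS2 for peaks, with input DNA as control and broad peaks for ATAC-seq. Versions of Bowtie2 and MACS2 are not given in the sources used here. The deposited fold enrichment is the authors' ratio of pileup to local background. The deposited files also hold a score. The deposited −log10 p-values and −log10 q-values are those of MACS2, the score column follows the q-value, and the last column gives the summit offset. A −log10 q of 1.45 was the smallest in the FL list. The read depth of each list is not given in the files, and depth moves the number of peaks, so a site without a peak may lie below the threshold.

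Overlaps needed 1 bp. Sequence came from hg19 (400 bp for the consensus, 200 bp for A/T content and repeats, at the peak midpoint), and 3 of the 1673 sites were left out of sequence measures for unknown bases. Each summit was placed on GENCODE protein-coding transcripts in GRCh37 coordinates, with promoters of 1000 bp before and 100 bp after a start, in the order promoter, exon, intron, intergenic. Shares carry exact Clopper-Pearson intervals, differences of shares Newcombe intervals, and means normal intervals across peaks. Neighbouring peaks and matches are not independent. The 4 classes of strength follow the quartiles of FL or N-C1 fold enrichment.

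The sites and gene lists were chosen with earlier results of these data known, and A/T runs, TA steps, TAATTA, inverted repeats and repeated words were added after the sequences were seen. Named sites followed a rule: the 6 largest FL values, the 4 with most matches, the 3 largest N-C1 values, the 3 farthest from ∆HD, the 3 strongest in neither drug list, promoter and exonic sites up to 10 each, the 5 strongest accessible sites, the 10 genes with most sites, the sites nearest the threshold, and 4 genes per list. Some items that this rule names are not reported here. Functions were tested on simulated data, overlaps against bedtools 2.31.1. Tools were scipy 1.17.1, numpy 2.4.6, pysam 0.24.0 and pandas 2.3.3 under Python 3.11.15, with samtools 1.23.1 for the genome index and matplotlib 3.10.9 for plots.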

Additional observations from a re-analysis of the deposited data

How the results depend on the processing

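The number of sites moved most under a reciprocal overlap of 50%, to 4024, whose mean A/T content was 72.6% and mean match number 2.63. With only ∆HD peaks of fold enrichment 5 or more counted, 2459 sites were found, whose A/T content was 75.4% and match number 2.97. With FL fold enrichment of at least 5, A/T content was 76.7%, and 82.0% and 94.7% of the sites were in the camptothecin and ICRF-193 lists. Accessible shares were 1.26% and 2.45% (native and Satb1-expressing cells) with 50% of the peak covered, and 1.14% and 2.51% at the summit. Windows of 150 and 200 bp gave a match at 92.9% and 94.7% of sites and means of 2.37 and 2.64, and the narrower consensus 53.2% and 0.781. A/T content was 80.1% in 100 bp and 72.0% in 400 bp. The spacing ratio was 2.27 for sites with exactly 2 matches, and 1.05 and 1.73 per even window for all neighbours and for exactly 2 matches. The intergenic share was 44.2% with transcripts of every type.

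Of the differences from the sites of all 3 lists, that in match number was 0.665 within classes of N-C1 fold enrichment and turned to -0.287 within classes of A/T content. Only the A/T classes from 80% upward had intervals below 0. Within A/T classes the A/T run differed by 6.44 bp and TAATTA by 0.199 copies. The camptothecin share turned from -2.19 to 12.5 points within N-C1 classes and was -10.4 within A/T classes, and the ICRF-193 share was 8.68 and -3.30. Within the N-C1 classes the sites missing in ∆HD had the higher FL fold enrichment. The cause was not tested. The even windows, the A/T classes and the A/T values under other choices of sites were added after the data were seen. No paired analysis was possible because each condition had 1 list.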

Other observations

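Full-length peaks that overlapped neither construct were more A/T rich still, with 80.9% (80.5 to 81.2, n = 935) in 200 bp and a longest A/T run of 26.6 bp (25.7 to 27.6). They held 2.90 consensus matches (2.77 to 3.02), and 97% (95.7 to 98.0) of them were in the ICRF-193 list. TA made up 20% or more of steps at 31.8% (28.8 to 34.9) of them, against 12.7% of the sites missing in ∆HD. Repeated words of 8 bases made up 18.2% (17.0 to 19.4) of their words, against 12.2%. The opposite choice, full-length peaks with a ∆HD peak and no N-C1 peak, gave 163 sites, of which 61.3% (53.4 to 68.9) were in the camptothecin list, against 81.7% of all full-length peaks. These were weak peaks, with a median percentile of 12 in the FL list, and of the sites of all 3 lists in the weakest FL class 58.4% were in the camptothecin list. An A/T run of 20 bp or more was present at 20.2% (14.4 to 27.2) of the 163 sites, although they had a ∆HD peak.

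Along the genome, the share of full-length peaks that were in N-C1 without a ∆HD peak lay between 5.36% (4.49 to 6.36) on chromosome 1 and 9.76% (6.58 to 13.8) on chromosome 20, leaving aside chromosome Y, where it was 8 of 44 peaks (18.2%, 8.19 to 32.7). Most sites stood alone in the order of full-length peaks, 1448 of them with no neighbour of their kind. The sites were 7.31% of full-length peaks, so most would stand alone at that share in any case. Whether they group along the genome was not tested. Runs of 2 numbered 103, runs of 3 numbered 5, and 1 run held 4 sites over 517270 bp.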
